A study of Mus musculus with 4 samples.

Results

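CTCF peaks at 10 Sox genes of the neural lineage were examined in the developing mouse forebrain. The members were Sox1, Sox2, Sox4, Sox5, Sox6, Sox8, Sox9, Sox10, Sox11 and Sox21, 10 of 21887 protein-coding gene entries on chromosomes 1 to 19, X and Y. They were chosen by name, with earlier results of these data known, and each was taken with 200 kb of sequence on either side at its mm10 position. The windows of the 10 genes covered 5.57 Mb and did not overlap. They held 51 of 25625 peaks in the list from the medial ganglionic eminence (MGE) and 82 of 31886 peaks in the list from the telencephalon.

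CTCF occupancy was mapped by ChIP-seq (chromatin immunoprecipitation followed by sequencing) with a rabbit anti-CTCF antibody, in MGE and in telencephalon, both labelled embryonic day 13.5. The MGE is the ventral forebrain domain from which many cortical interneurons arise. The strain of the mice, any pooling of embryos and whether the telencephalon sample included the MGE are not stated in the labels. Each tissue had 1 CTCF library and 1 input library, and the inputs are not analysed here. The libraries were made with different New England Biolabs kits, and the telencephalon track is named e14 in its file header, so tissue cannot be told apart from kit or from any difference in stage. The narrowest peak is 244 bp in MGE and 150 bp in telencephalon, and the calling thresholds are not given. Tissue thus cannot be told apart from peak calling either. Each peak is listed as a position alone, with no score, so sequencing depth is unknown, no p-value was computed and the labelled tissues were not checked against marker genes. Sharing between the lists meant an overlap of 1 bp or more. Intervals are exact 95% Clopper-Pearson intervals for shares and exact 95% Poisson intervals for densities, and they cover counting error only.

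SOX proteins are transcription factors that bind and bend DNA through an HMG box. In the developing brain, SoxB1 proteins (Sox1 and Sox2) maintain neural progenitors and SoxB2 proteins (Sox21) counteract them, while SoxC proteins (Sox4 and Sox11) act in newly born neurons. SoxD proteins (Sox5 and Sox6) shape neuronal subtypes, Sox5 in deep-layer cortical neurons and Sox6 in MGE-derived interneurons, and SoxE proteins (Sox8, Sox9 and Sox10) act in glia and neural crest. CTCF binds DNA through zinc fingers and, with cohesin, marks loop anchors and domain borders. Several Sox genes stand alone in gene-poor stretches, where distant enhancers act on them.

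CTCF peaks lay in or within 10 kb of nearly all of these genes. Within 10 kb of the gene body, itself included, a peak was found for 9 of 10 members in MGE and for 9 of 10 in telencephalon. Among all protein-coding genes the shares were 51.3% and 61.3%. The exception in both lists was Sox21, whose nearest peaks lay 12.0 kb and 12.1 kb away. In the same area 8 of 10 members had a shared peak, against 42.2% of protein-coding genes in either list. Inside the gene, peaks were found for 4 of 10 members in each list, against 31.4% of protein-coding genes in MGE and 39.1% in telencephalon. All 10 members had at least 1 peak in the 200 kb window in each list, as did 96.2% and 93.1% of protein-coding genes. Since long genes hold more peaks, the 8 members under 10 kb long were also set beside the 7925 protein-coding genes under 10 kb. Within 10 kb, 7 of these 8 had a peak in each list, against 35.0% of short genes in MGE and 44.0% in telencephalon, and 6 of the 8 had a shared one, against 29.0%. Gene-end peaks, within 1 kb either side of an annotated end, were found at 2 of 10 members in MGE (Sox11 and Sox6) and 1 of 10 in telencephalon (Sox6). The corresponding shares of protein-coding genes were 12.1% and 19.3%, and with so few members these counts do not stand apart. Widening the gene end to 5 kb gave 7 of 10 members in each list. The share of protein-coding genes at this wider limit is not given, so the count stands without a background.

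Relative to the windows of protein-coding genes, the Sox windows as a whole were not rich in CTCF peaks. They held 9.16 peaks per Mb in MGE (interval 6.82 to 12.0) and 14.7 per Mb in telencephalon (11.7 to 18.3). The median member had 8.35 and 12.1 peaks per Mb, and the median protein-coding gene had 12.4 and 19.4. Sox11 was lowest, with 2.45 peaks per Mb in each list (percentiles 6.22 and 8.64 of protein-coding genes), and Sox10 was highest, with 24.4 and 39.1 (percentiles 85.5 and 85.2). In MGE, 8 of 10 members lay below the median density and Sox8 and Sox10 above it, with Sox2 nearest to it at percentile 49.9. In telencephalon, 7 of 10 lay below and Sox2, Sox8 and Sox10 above.

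**Figure D1:**
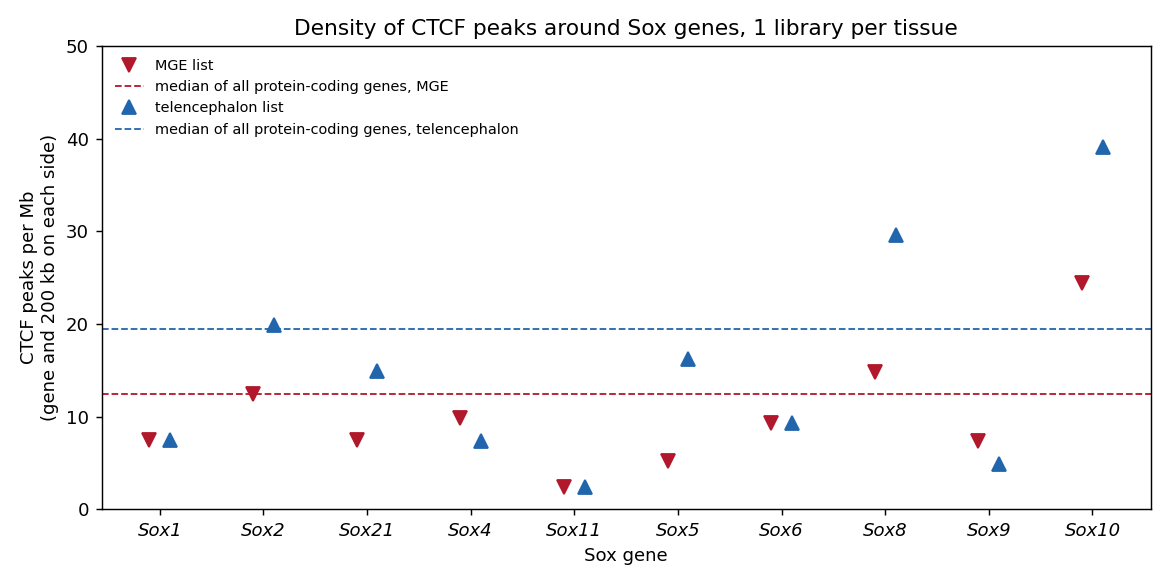
CTCF peaks per Mb (y axis) in each Sox gene with 200 kb on each side (x axis), for the MGE list (red) and the telencephalon list (blue). Dashed lines are medians over all protein-coding genes, 12.4 in MGE and 19.4 in telencephalon; Sox10 and Sox8 stand above them in both lists and Sox11 is lowest in both.

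The members also differed in how many other genes lie around them. The median protein-coding gene had 8 other protein-coding genes in its window. Sox10 had 15 and Sox8 had 11, whereas Sox2, Sox4, Sox5, Sox9 and Sox11 had 0. The part of gene number in the peak density was not tested.

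The windows had 34 shared peaks among 51 in MGE (66.7%, interval 52.1 to 79.2%) and 35 among 82 in telencephalon (42.7%, 31.8 to 54.1%). The whole lists had 58.4% and 47.0%, both inside these intervals. All 16 MGE peaks around Sox8 and Sox10 were shared, and 18 of 35 around the other members were. Sox8 and Sox10 were grouped after these values were seen, so the contrast is a description. The telencephalon list had 16 of 28 around Sox8 and Sox10 and 19 of 54 around the others. The long genes Sox5 and Sox6 together had 8 shared among 16 MGE peaks and 8 among 31 telencephalon peaks.

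Shared peaks were wider than unshared ones, as in the whole lists. Their median width was 344 bp in MGE and 374 bp in telencephalon, and that of unshared peaks was 244 bp and 206 bp. The narrowest width that occurs in the MGE list is 244 bp. Of the 17 unshared MGE peaks in the Sox windows, 12 had that width (70.6%), against 56.2% of unshared peaks in the whole MGE list. Without peaks of the narrowest width in either list, 30 of 35 MGE peaks were shared (85.7%). The whole-list share under this filter is not given. The filter also takes out many unshared peaks of the whole MGE list, so the rise cannot be called particular to the Sox windows. The unshared MGE peaks wider than this lay near Sox6 (462 bp), Sox5 (425 and 348 bp), Sox4 (349 bp) and Sox11 (261 bp).

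**Figure D2:**
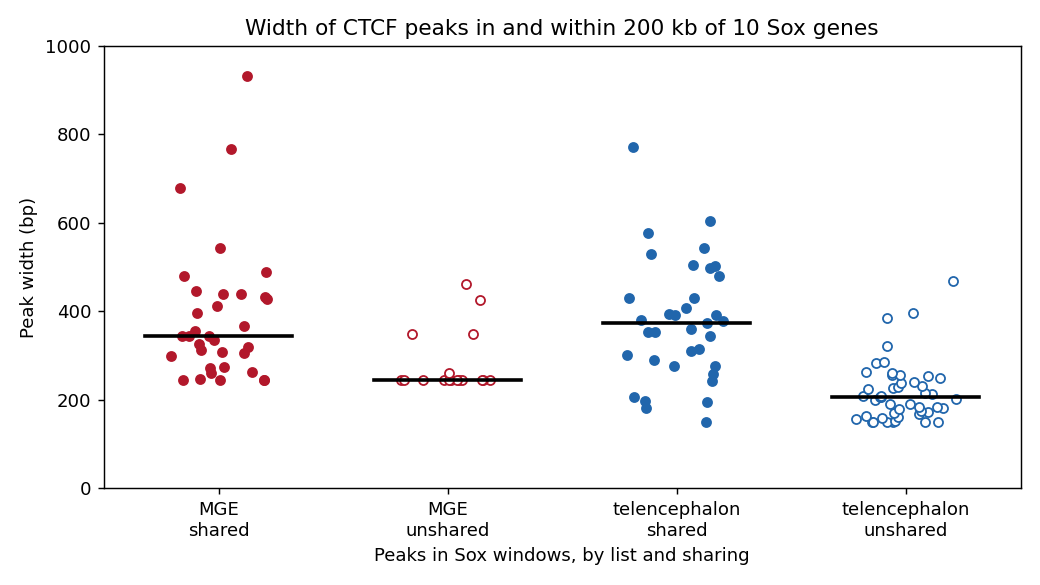
Width in bp (y axis) of every peak in the 10 Sox windows, by list and by sharing (x axis); each point is a peak, horizontal bars are medians and sideways scatter has no meaning. Filled points are shared peaks, with medians of 344 bp in MGE and 374 bp in telencephalon, and open points are unshared peaks, with medians of 244 bp and 206 bp.

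Sox1 (chr8:12395519-12399555, plus strand) had 3 peaks in each list. The nearest lay 3.62 kb upstream of the gene in MGE (chr8:12391534-12391899) and 3.60 kb upstream in telencephalon (chr8:12391628-12391916), inside the overlapping long noncoding RNA gene Sox1ot. This peak was shared, as was one 165 kb downstream (chr8:12564414-12564684 in MGE and chr8:12564361-12564753 in telencephalon). No peak of either list lay between them, apart from a 255 bp telencephalon peak 162 kb downstream. The remaining MGE peak was 107 kb upstream and had the narrowest width.

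Sox2 (chr3:34649995-34652461, plus strand) had 5 MGE and 8 telencephalon peaks. A row of shared peaks lay just upstream, within the long noncoding RNA gene Sox2ot, in whose intron Sox2 sits. In MGE these were 1.93 kb (chr3:34647136-34648066), 8.87 kb (chr3:34640785-34641127) and 10.3 kb (chr3:34639227-34639666) from the gene. In telencephalon the peaks at 8.79 kb and 10.4 kb matched the farther MGE peaks one to one, and the first MGE peak overlapped a pair, at 1.95 kb (chr3:34647747-34648048) and 2.82 kb (chr3:34646991-34647172). The MGE peak nearest to Sox2 was 931 bp wide, at percentile 99.9 of widths in its list, and its telencephalon partners were 302 and 182 bp wide. The 2 unshared MGE peaks, 135 kb downstream and 145 kb upstream, had the narrowest width. Telencephalon had unshared peaks 13.8 kb and 18.7 kb downstream and 58.9 kb and 73.6 kb upstream, all in Sox2ot. Beyond Sox2 the next shared MGE peak on the downstream side was 451 kb away.

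Neither gene start was covered. The 250 bases before the Sox1 start (chr8:12395269-12395518) and the Sox2 start (chr3:34649745-34649994) overlapped no peak. They are shown, from RefSeq on GRCm38.p6 (the coordinates of mm10) on the plus strand, because they are CpG-rich sequence that the nearby CTCF peaks leave free. Capitals mark each CG.
Sox1: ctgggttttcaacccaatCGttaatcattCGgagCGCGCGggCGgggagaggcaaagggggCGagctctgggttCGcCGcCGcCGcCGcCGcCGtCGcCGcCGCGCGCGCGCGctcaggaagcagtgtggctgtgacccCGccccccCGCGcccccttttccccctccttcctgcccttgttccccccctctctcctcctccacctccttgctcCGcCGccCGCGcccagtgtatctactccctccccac
Sox2: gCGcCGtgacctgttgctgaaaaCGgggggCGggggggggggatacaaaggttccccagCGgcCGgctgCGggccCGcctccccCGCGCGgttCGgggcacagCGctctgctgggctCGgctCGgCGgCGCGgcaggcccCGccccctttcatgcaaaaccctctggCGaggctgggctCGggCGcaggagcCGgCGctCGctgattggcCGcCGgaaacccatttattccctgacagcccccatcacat
They hold 29 and 27 CG pairs, at percentiles 93.6 and 91.9 of all 32851 RefSeq promoters, whose median is 6. Promoters overlapping a peak of either list have a median of 16.

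Sox21 (chr14:118233233-118237030, minus strand), the SoxB2 gene, had 3 MGE and 6 telencephalon peaks and none within 10 kb. Its nearest peak was shared and lay 12.0 kb downstream in MGE (chr14:118221010-118221255, 246 bp) and 12.1 kb downstream in telencephalon (chr14:118220964-118221157, 194 bp). A further shared peak lay 75.8 kb downstream in Gpr180 (chr14:118157191-118157463 in MGE and chr14:118157166-118157479 in telencephalon). The remaining peaks were unshared. Upstream, MGE had a narrowest-width peak at 31.0 kb and telencephalon a 178 bp peak at 75.7 kb. Downstream, telencephalon had 3 more, at 23.3 kb, 29.9 kb and 59.1 kb, 172 to 214 bp wide.

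Sox4 (chr13:28948919-28953699, minus strand) had a close pair of shared peaks upstream. They lay 4.15 kb (chr13:28957847-28958106) and 5.93 kb (chr13:28959635-28959954) from the gene in MGE, and 4.08 kb (chr13:28957782-28958091) and 5.87 kb (chr13:28959570-28959845) in telencephalon. They fall in the long noncoding RNA gene Gm46405, which overlaps Sox4. Inside Sox4 the MGE list had a 244 bp peak (chr13:28950310-28950553) with no telencephalon partner. MGE had 1 further peak 184 kb upstream, and telencephalon 1 further peak 138 kb downstream, neither shared. On the downstream side the nearest shared MGE peak was 1003 kb away.

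Sox11 (chr12:27334268-27342718, minus strand), the other SoxC gene, had the fewest peaks. Its window held 1 MGE peak (chr12:27342969-27343229, 261 bp), 250 bases upstream of the gene, and 1 telencephalon peak (chr12:27335784-27335946, 163 bp) inside the gene. These do not overlap, so no shared peak lay within 200 kb. The nearest shared peak was 257 kb away in MGE and 256 kb away in telencephalon. Both window peaks were below the median width of their lists, at width percentiles 35.2 in MGE and 10.1 in telencephalon. The RefSeq promoters of the SoxC genes are shown on the minus strand, reading towards the gene, with each CG in capitals. The Sox11 sequence (chr12:27342719-27342968) ends upstream at the base before the MGE peak, and the Sox4 sequence (chr13:28953700-28953949) lies between the gene and its upstream pair.
Sox11: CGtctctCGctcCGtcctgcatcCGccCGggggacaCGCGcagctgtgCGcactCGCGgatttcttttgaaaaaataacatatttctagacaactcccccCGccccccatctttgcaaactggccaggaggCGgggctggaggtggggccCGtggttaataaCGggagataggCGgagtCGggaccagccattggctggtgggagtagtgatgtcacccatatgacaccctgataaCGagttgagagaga
Sox4: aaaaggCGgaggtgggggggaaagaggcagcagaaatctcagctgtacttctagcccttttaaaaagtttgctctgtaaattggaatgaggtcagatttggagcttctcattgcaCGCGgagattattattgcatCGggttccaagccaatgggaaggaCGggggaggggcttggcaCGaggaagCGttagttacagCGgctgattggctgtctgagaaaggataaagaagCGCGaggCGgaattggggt
They hold 17 and 11 CG pairs, and neither overlaps a peak.

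**Figure D3:**
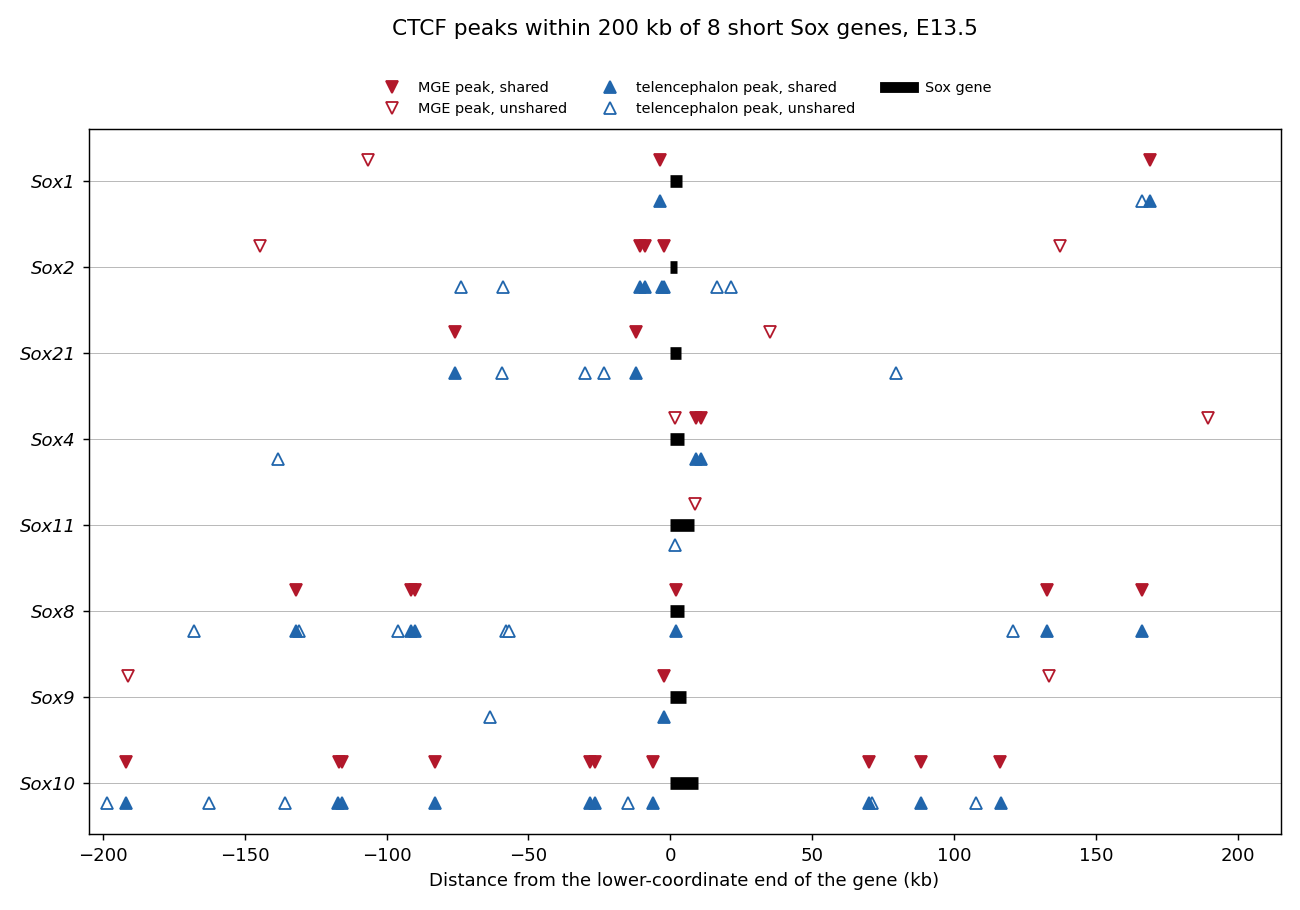
Midpoints of CTCF peaks by distance in kb from the lower-coordinate end of each of 8 short Sox genes (x axis), 1 row per gene, with MGE peaks above the line (red) and telencephalon peaks below it (blue). Filled triangles are shared peaks and black bars the genes. Shared peaks sit beside Sox1, Sox2, Sox4 and Sox9, with none for at least 150 kb on the far side. Sox11 has no shared peak, and every MGE peak around Sox8 and Sox10 is shared.

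Sox5 (chr6:143828425-144782287) spans 954 kb and had 7 MGE peaks and 22 telencephalon peaks in its window. Inside the gene there were 6 and 16, or 6.29 and 16.8 per Mb of gene. Telencephalon peaks were 1.24 times as many as MGE peaks in the whole lists, 3.14 times around Sox5 and 1.36 times around the other 9 members. The telencephalon peaks were mostly narrow. Of the 22 in the window, 5 had the narrowest width of the telencephalon list, 150 bp, as did 5.74% of that whole list. Those inside Sox5 had a median width of 183 bp and a maximum of 276 bp. Among peaks at least 244 bp wide, the window held 7 in MGE and 5 in telencephalon, a ratio of telencephalon to MGE of 0.714, and the whole lists had a ratio of 0.769 under the same limit. This limit is the narrowest width of the MGE list, so it could take out telencephalon peaks alone. Both ratios could therefore only fall, and their turn below 1 is no finding about Sox5. With the telencephalon list reduced to its widest 25625 peaks, as many as in MGE, the window held 12, a ratio of 1.71, and Sox8 then had a higher one, 1.83. Both limits were chosen for Sox5 after its values were seen.

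The peaks in common inside Sox5 were 3. They lay at chr6:144339112-144339355, chr6:144429345-144429649 and chr6:144666763-144667006 in MGE, and at chr6:144339093-144339368, chr6:144429390-144429587 and chr6:144666738-144666887 in telencephalon. In MGE, those at either end of this row had the narrowest width. In telencephalon, the last of them was 150 bp wide, the narrowest width of that list. No peak of either list lay in the 200 kb on the lower-coordinate side, beyond the 3' end of the gene, and the first peak inside was 253 kb from that end in MGE and 177 kb in telencephalon. On the other side MGE had a 425 bp peak 105 kb away with no partner, and telencephalon had 6 unshared peaks, of which the widest was 469 bp and 179 kb away.

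The only RefSeq start listed for Sox5 lies inside the annotated gene, nearer its 3' end than its 5' end. The preceding 250 bases (chr6:143947107-143947356, minus strand) are shown, again with each CG in capitals. No entry covers the 5' end of Sox5, so this sequence cannot be set against the Sox1 and Sox2 starts as its counterpart.
Sox5: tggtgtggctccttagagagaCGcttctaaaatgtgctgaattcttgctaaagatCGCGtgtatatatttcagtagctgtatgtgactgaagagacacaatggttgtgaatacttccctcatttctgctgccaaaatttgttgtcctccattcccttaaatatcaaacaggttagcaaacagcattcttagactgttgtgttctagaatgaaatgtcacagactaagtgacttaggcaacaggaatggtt
It holds 3 CG pairs (percentile 33.4) and overlaps no peak.

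Sox6 (chr7:115470872-116040776) spans 570 kb and had 9 peaks in each list, with 5 shared in each. It was the single member with a shared gene-end peak, 309 bp wide in MGE (chr7:116040245-116040553) and 345 bp in telencephalon (chr7:116040239-116040583), about 0.2 kb inside the upper, 5' end. Elsewhere in the gene the lists had no peak in common: MGE had 3 peaks, all of the narrowest width, and telencephalon had 3, of 150, 209 and 322 bp. Outside the gene the lists agreed more. In MGE, shared peaks lay 17.2 kb and 104 kb downstream, and 91.2 kb and 120 kb upstream, the upstream ones in Plekha7, which encodes a junctional protein. The MGE peak 120 kb away (chr7:116161139-116161816) was 678 bp wide, at percentile 99.3, and its partner (chr7:116161344-116161873) was 530 bp wide. A 462 bp MGE peak 11.5 kb upstream (chr7:116052320-116052781, percentile 91.7) had no telencephalon partner. It was the widest unshared MGE peak of all 10 windows.

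**Figure D4:**
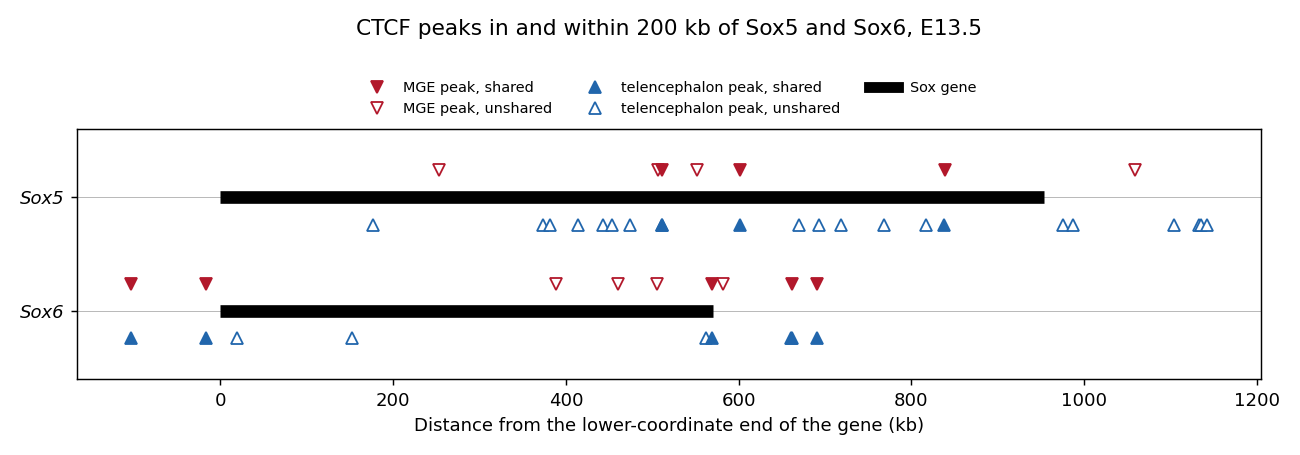
Midpoints of CTCF peaks by distance in kb from the lower-coordinate end of Sox5 and Sox6 (x axis), with MGE peaks above each gene (red), telencephalon peaks below it (blue), shared peaks filled and genes as black bars. Sox5 has 6 MGE and 16 telencephalon peaks inside the gene with 3 shared, and Sox6 has 4 and 4 with 1 shared, at its upper end.

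Sox8 (chr17:25565893-25570686, minus strand) had 6 MGE and 12 telencephalon peaks, and each of the 6 MGE peaks was shared. It was the single short member with a shared peak inside the gene, 428 bp wide in MGE (chr17:25567764-25568191) and 381 bp in telencephalon (chr17:25567751-25568131). Downstream, a close pair of shared peaks lay in Tekt4, a gene for a cilium protein, 89.6 kb and 91.1 kb away in MGE, and a further one lay 132 kb away in the calcium channel gene Cacna1h. Upstream, shared peaks lay at 128 kb and 161 kb, the farther one within 1 kb of an end of Rpusd1. The 6 unshared telencephalon peaks were 150 to 396 bp wide, and the widest was 57.7 kb downstream (chr17:25507836-25508231).

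Sox9 (chr11:112782210-112787757) had 3 MGE and 2 telencephalon peaks. The nearest was shared, 1.97 kb below the lower-coordinate end in MGE (chr11:112779847-112780243, 397 bp) and 2.03 kb in telencephalon (chr11:112779699-112780178, 480 bp). The other peaks, at 128 kb and 191 kb in MGE and 63.4 kb in telencephalon, were unshared, and both of those MGE peaks had the narrowest width. On the higher-coordinate side the next shared MGE peak was 377 kb away. The nearest protein-coding genes lay 1056 kb below Sox9 and 457 kb above it.

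Sox10 (chr15:79154913-79164490) had the densest window, with 10 MGE peaks, all shared, and 16 telencephalon peaks. The nearest lay 5.98 kb below the gene in MGE (chr15:79148668-79148929, 262 bp) and 5.76 kb in telencephalon (chr15:79148606-79149149, 544 bp), inside Polr2f, which encodes an RNA polymerase subunit. Close pairs of shared peaks lay in Micall1 (26.3 kb and 28.0 kb away in MGE) and at Gcat (116 kb and 117 kb). On the higher side, shared MGE peaks lay at 60.3 kb, at 78.6 kb in Pick1 and at 106 kb in Baiap2l2. The one in Baiap2l2 (chr15:79270768-79271533, 766 bp) was the widest MGE peak of this window. In telencephalon the widest was in Gcat (chr15:79037431-79038201, 771 bp). The 6 telencephalon peaks without a partner were 156 to 384 bp wide.

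The shared peak 60.3 kb above Sox10 is the one place where a RefSeq promoter sequence in these windows overlaps a peak. It belongs to Gm52189, a long noncoding RNA gene, and is shown because it holds sequence from within a CTCF peak (chr15:79224490-79224739, minus strand). Capitals mark the 158 bases inside the telencephalon peak (chr15:79224582-79225085).
Gm52189: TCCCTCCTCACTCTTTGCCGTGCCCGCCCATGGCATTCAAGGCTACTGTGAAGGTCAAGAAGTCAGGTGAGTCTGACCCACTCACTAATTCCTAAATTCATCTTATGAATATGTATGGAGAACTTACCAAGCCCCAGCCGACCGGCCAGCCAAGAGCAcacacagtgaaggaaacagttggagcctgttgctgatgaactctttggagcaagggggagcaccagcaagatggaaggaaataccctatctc
The MGE peak (chr15:79224754-79225109) starts 14 bases beyond the upstream end of this sequence. A core word of the CTCF motif (CCA, any 2 bases, AG, any 2 bases, GGC), searched on both strands, did not occur in it, and most of the peak lies outside it. Nor did the word occur in any of the 13 promoter entries of the 8 members that have one, which include the 50 bases after the start. No sequence was matched for Sox9 and Sox10. The word occurs in 2.43% of all promoters and in 12.2% of those overlapping a peak of either list, so its lack says only that these letters are not in those windows.

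A shared peak stood 1 to 10 kb outside the gene for 5 of 10 members, Sox1, Sox2, Sox4, Sox9 and Sox10. In the MGE list this held for 21.8% of protein-coding genes and 21.2% of those under 10 kb, and in the telencephalon list for 21.7% and 21.1%. Around most of these members, the nearest shared peaks lay at unequal distances on either side. The nearest shared MGE peak was within 5 kb on one side and at least 150 kb away on the other for 4 of 10 members (Sox1, Sox2, Sox4 and Sox9). The same spacing was found for 2.60% of protein-coding genes and 2.30% of those under 10 kb. The distances on either side were 3.62 and 165 kb for Sox1, 1.93 and 451 kb for Sox2, 4.15 and 1003 kb for Sox4, and 1.97 and 377 kb for Sox9. For Sox1, Sox2 and Sox4, whose strand is known from the promoter entries, the close peak was upstream. Sox2, Sox4 and Sox9 had no other protein-coding gene within 200 kb. The interval between the flanking shared MGE peaks ranged from 75.8 kb around Sox10 (percentile 17.0 of protein-coding genes) to 1649 kb around Sox5 (percentile 92.1). The median over protein-coding genes was 217 kb. The interval around Sox1 was below this median, at 173 kb (percentile 42.7). It was 385 kb around Sox9 (percentile 68.0), 455 kb around Sox2 (percentile 71.9) and 1012 kb around Sox4 (percentile 85.6). Sox5, Sox6 and Sox8 have shared peaks in the gene and so inside this interval, 3, 1 and 1. The distance limits were set after these values were seen.

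Shared peaks also came in close pairs. Of 34 shared MGE peaks in the Sox windows, 10 had another shared MGE peak within 2 kb (29.4%), and of 35 shared telencephalon peaks 12 did (34.3%). The shares in the whole lists were 9.14% and 9.39%. The 5 MGE pairs lay upstream of Sox2 (1118 bases between the peaks) and Sox4 (1528 bases), below Sox8 (1068 bases) and at 2 places below Sox10 (716 and 1433 bases), so the count rests on 4 loci. The telencephalon list had the same pairs and the pair at Sox2 that a single MGE peak overlapped. The pairing was noticed in the peak positions, and peaks of a pair are not independent.

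Sox genes beyond these members were looked at in the same way. Of 9 such genes, 4 had a peak inside or at most 10 kb away in MGE and 5 in telencephalon (44.4% and 55.6%), near the shares of all protein-coding genes. Gene-end peaks occurred at 2 of 9 in MGE and 3 of 9 in telencephalon, against 12.1% and 19.3% of protein-coding genes. Sox13, a SoxD gene, and Sox15 had shared ones, and Sox12, the remaining SoxC gene, had a 220 bp peak in telencephalon (chr2:152392895-152393114) and none in MGE. Sox3, the third SoxB1 gene, had 1 peak in each list, 158 kb and 153 kb away. The difference between these genes and the 10 members was not tested.

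Partners and targets of SOX proteins, 21 genes, had a gene-end peak in 5 cases in MGE and 7 in telencephalon (23.8% and 33.3%, against 12.1% and 19.3% of protein-coding genes). A peak lay in or within 10 kb of 11 in MGE and 16 in telencephalon (52.4% and 76.2%, against 51.3% and 61.3%), and a shared peak lay there for 9 in either list (42.9%, against 42.2%). Shared gene-end peaks were found at Nes (nestin, a progenitor filament), Tubb3 (a neuronal tubulin), Erbb3 (a neuregulin receptor) and Myrf (a myelin regulator). Those at Erbb3 were 535 bp wide in MGE and 717 bp in telencephalon. Pou3f2, a POU factor that partners Sox2, had a gene-end peak in each list at different places (chr4:22482890-22483546 in MGE and chr4:22488047-22488268 in telencephalon). Chd7, a chromatin remodeller, and Olig2 had one in telencephalon and none in MGE.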

How the data were processed

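CTCF and input ChIP-seq libraries came from MGE and telencephalon. Sonication to an average of 500 bp is given in the labels' protocols. Alignment and calling tools named in the submitters' processing notes are Bowtie2 (2.3.2) and MACS2 (2.1.1.20160309), with build mm10. The threshold, control and filters of peak calling are not given in the sources. The track names in the file headers end in p01 for MGE and p001 for telencephalon, with no statement of what these mean. The authors deposited peak positions alone, called per library, with no counts. Peaks outside chromosomes 1 to 19, X and Y (85 in MGE, 93 in telencephalon) were left out.

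Gene positions came from a RefSeq table on GRCm38.p6, and strands and promoters from a second one. Positions are 1-based. Distances are the bases between peak and gene. Overlaps were computed in Python 3.11.15 with scipy 1.17.1, checked on simulated peaks. Protein-coding genes served as the background, and with 1 library per tissue no test was made.

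Members and gene lists were chosen with earlier results of these data known. All 10 members are named; other genes are named as list members with a gene-end peak, or as genes at a described peak. The comparisons with short genes, the grouping of Sox8 with Sox10, the width limits at Sox5, the 1-sided spacing and the close pairs were chosen after the values were seen. A gene first listed among the SOX partners and targets is not reported here, and the counts of that list leave it out.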

Additional observations from a re-analysis of the deposited data

How the results depend on the processing

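Without peaks of the narrowest width, 85.7% of MGE peaks were shared and the MGE density fell to 6.29 per Mb. The wider 50% of peaks gave densities of 5.03 in MGE and 5.93 in telencephalon, a telencephalon shared share of 60.6%, and a gene-end peak at 1 member in MGE. With the telencephalon list cut to the length of the MGE list, 54.1% of its peaks in the Sox windows were shared, at 11.0 per Mb. Shares of the whole lists and densities over all protein-coding genes are not given under these limits. The shifts can therefore not be called particular to the Sox windows. Leaving out Sox8 and Sox10, an alternative chosen after seeing the data, gave an MGE shared share of 51.4% and a telencephalon density of 11.4 per Mb. Gene ends of 5 kb gave 7 members in each list, with no share of protein-coding genes at that limit to set beside them. Gene bodies alone, without the 10 kb around them, gave 4 members in each list. The other alternatives computed for these shares, densities and counts stayed within the counting interval or within 1.5 times the reported count. The causes of these shifts were not tested beyond what the changed limits remove or add by construction. No paired analysis was possible because each tissue has 1 CTCF library. Depth is unknown, so sites of CTCF below a list's calling limit cannot be told from sites without it.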
